A study of Mus musculus with 16 samples.

Results

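The mouse odorant receptor genes of chromosome 10 were followed across 4 groups of sorted olfactory cells. Members were the probesets whose array identifier places them on chromosome 10 and whose annotated symbol is Olfr followed by a number, with pseudogenes left out. This gave 65 receptors, 1 probeset each, among 1080 odorant receptor probesets and 22206 gene probesets in all. All 65 matched a gene of RefSeq by gene ID, with 0 symbols changed.

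The cells came from 24 S100a5-tauGFP mice of both sexes aged 7 to 12 weeks, in which a tau-linked green fluorescent protein (GFP) marks cells that express S100a5. Every mouse, controls included, carried this reporter and spent 40 h alone in a chamber with clean air at 3.1 L/min, and from 26 h on received 10 s pulses every 20 min of filtered air (vehicle) or of odorant. The labels name the odorant bourgeonal and the title of the series names indole, so its identity is not settled and it is called the odorant. The mucosa of 3 mice was pooled for each sort into GFP+ and GFP- cells, which gave 4 groups of 4 Clariom S arrays: GFP+ with vehicle, GFP- with vehicle, GFP+ with odorant and GFP- with odorant. Both fractions of a pool were hybridised, which makes 8 pools in all, and values are listed below by pool number.

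An olfactory sensory neuron chooses a single odorant receptor gene, usually from 1 allele, and the receptor it makes sets which odorants the cell detects and where its axon goes in the olfactory bulb. A bound receptor acts through the G protein subunit Gnal, the cyclase Adcy3, a cyclic nucleotide-gated channel and the chloride channel Ano2. S100a5 is a calcium-binding protein whose expression in these neurons depends on sensory activity, so GFP reports how active a neuron has been, and the level of a receptor in sorted cells reflects the neurons that chose it. All members belong to the large class of receptors typical of land vertebrates, and the labels name no ligand for any of them.

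In RefSeq order the members formed 2 clusters. The small one holds 9 members from Olfr1357 to Olfr57, with Olfr1356, Olfr1355, Olfr1354, Olfr8, Olfr1353, Olfr1352 and Olfr1351 between them. The large one holds 56, from Olfr9 to Olfr827, along with 11 receptor pseudogenes, 2 coding receptors that are not on the list of members (Olfr785 and Olfr789) and 1 other coding gene. The clusters are separated by 472 coding genes. Neighbours in such clusters often arose by duplication, and some are close to identical. The first 50 coding bases are shown for 3 neighbouring pairs on which the results below turn, from RefSeq on build GRCm38.p6, with capitals at the positions where the pair differs. Olfr825 and Olfr826 are at chr10:130163275-130163324 and chr10:130180829-130180878 on the minus strand, and both were at background in GFP+ cells. Olfr775 and Olfr776 are at chr10:129250536-129250585 and chr10:129260963-129261012 on the plus strand. They were called in opposite directions with vehicle, and both calls depended on single pools, as given below. Olfr1354 and Olfr8 are at chr10:78916842-78916891 and chr10:78955207-78955256 on the plus strand, and are identical here.
Olfr825: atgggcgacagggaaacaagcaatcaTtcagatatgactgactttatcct
Olfr826: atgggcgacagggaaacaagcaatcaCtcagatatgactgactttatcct
Olfr775: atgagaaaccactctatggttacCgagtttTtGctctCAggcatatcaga
Olfr776: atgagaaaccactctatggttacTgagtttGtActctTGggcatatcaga
Olfr1354: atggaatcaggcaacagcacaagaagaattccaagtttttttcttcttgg
Olfr8: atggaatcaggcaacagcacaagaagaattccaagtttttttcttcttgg

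Olfr825 and Olfr826 differed at 1 of the 50 positions, Olfr775 and Olfr776 at 5, and Olfr1354 and Olfr8 at 0. Over the 1128 pairs of the 48 members whose RefSeq model opens at the start codon, the median was 21 identical positions of 50 (range 9 to 50), and 11 pairs had at least 45. Of those 11, 6 were neighbours. Whether RNA of 1 receptor binds the probes of its near copy was not tested, so the values of such pairs are uncertain as measures of single genes.

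Most of the gene models begin at the start codon, so the bases before them are not a promoter. Olfr1357, one of 3 members with a spliced model and a RefSeq window, is shown as the example with an upstream region, because its level differed strongly between the fractions. The 250 bases before its model lie at chr10:78618075-78618324 on the minus strand, and capitals mark the letters TAATTA, a homeodomain-type site, and CCCNNGGG, an Olf/EBF-type site, both searched on both strands.
Olfr1357: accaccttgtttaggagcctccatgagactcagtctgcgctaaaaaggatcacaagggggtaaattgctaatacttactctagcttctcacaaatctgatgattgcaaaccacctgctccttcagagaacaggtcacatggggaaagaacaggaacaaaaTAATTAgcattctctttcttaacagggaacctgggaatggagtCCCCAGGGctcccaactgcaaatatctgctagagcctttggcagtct

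TAATTA stood 90 bases and CCCNNGGG 47 bases before the start of the model, and they did not overlap. Among 32851 windows of the same length, 4.84% held TAATTA and 11.8% held CCCNNGGG. Each motif was found in 1 of the 3 member windows, and such a match describes letters only.

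The background level of an array, set from control probes that match no mouse sequence, was 6.57 to 6.87 (log2 signal), and 46.7% to 50.9% of gene probesets lay above it. Of the 65 members, 39 to 49 exceeded it on the GFP+ arrays and 55 to 58 on the GFP- arrays. On all 16 arrays 33 members did so, and Olfr768, Olfr782 and Olfr1351 on none. Array medians ran from 6.29 to 6.38 on the GFP+ arrays and from 6.64 to 6.76 on the GFP- arrays. They thus differed with the fraction, and results with array medians subtracted are given below. On the arrays numbered 4 the Y-linked gene Eif2s3y read 2.64 to 3.41, which is under the background level, and on all others 9.95 to 11.17. The pools numbered 4 of both treatments thus stood apart, and calls lost or gained without 1 of them are named. Within a group the SD of a member over 4 arrays had a median of 0.40 to 0.48 and reached 1.31 for Olfr802 in GFP+ cells with odorant.

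The targeted reporter gene separated the fractions. S100a5 was at 15.97 ± 0.26 (SD, n = 4) in GFP+ and 15.04 ± 0.15 in GFP- cells with vehicle (difference 0.93, limma adjusted p = 0.0024), and at 15.99 ± 0.31 and 14.85 ± 0.28 with odorant (1.14, adjusted p = 0.0025). Omp, the marker of mature olfactory neurons, differed by 0.049 and 0.096 (adjusted p = 0.82 and 0.71). Of 21 genes of odor transduction, 6 were called higher in GFP+ cells and 1 lower with vehicle, and 2 higher and 1 lower with odorant (median difference 0.15 in both). The lower one in both was Pde2a, known from a separate class of olfactory neurons. Pde1c, a phosphodiesterase of olfactory cilia, was higher in both (0.65 and 0.69, adjusted p = 0.0085 and 0.0065).

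Markers of other cells moved with the fraction. All 7 immune markers found were lower in GFP+ cells in both treatments, with a summed level (log2) of 10.14 to 11.30 in GFP+ against 17.39 to 19.28 in GFP- cells with vehicle and 9.56 to 10.93 against 17.39 to 18.995 with odorant. In GFP+ cells 3 of these 7 were at background with vehicle and 4 with odorant, and in GFP- cells 0. Of 7 markers of immature neurons, 5 were lower in both treatments, and so were 4 of 4 progenitor and 5 of 5 microvillar and tuft cell markers. All 6 sustentacular markers were lower with vehicle and 3 of 6 with odorant. Summed markers of 7 mature neuron genes were at 20.18 to 20.26 in GFP+ and 20.04 to 20.08 in GFP- cells with vehicle, and at 20.19 to 20.23 and 19.93 to 20.08 with odorant. The part of these other cells in the receptor values was not tested, and in bulk samples fewer cells that chose a receptor and less of its RNA per cell cannot be told apart.

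GFP+ and GFP- cells of vehicle-treated mice were compared to ask which receptors belong to neurons with more or less S100a5 reporter without added odorant. More members were lower in GFP+ cells than were higher. Limma called 28 members lower (43.1%) and 9 higher (13.8%) at an adjusted p under 0.05. Over all gene probesets 9.97% were called lower and 7.76% higher, and over the 1015 other odorant receptors 24.3% and 36.5%. The median difference was -0.73 for the members, 0.34 for the other receptors and 0.082 for all probesets. With array medians subtracted, the median of all probesets moved to 0.45. The split was then 25 lower and 16 higher, and the median of the members was -0.37. That setting raised the differences of all probesets. The share of all probesets called in it is not given here, so whether the split is particular to the members was not tested. The GFP+ and GFP- groups did not overlap for 28 members that were lower (11% of all probesets) and 9 that were higher (11.9%).

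The same comparison in odorant-treated mice used other mice and other arrays. It called 27 members lower (41.5%) and 6 higher (9.23%), against 7.84% and 3.57% of all probesets and 23.3% and 35.7% of the other receptors. The median difference was -0.95 for the members, 0.38 for the other receptors and 0.10 for all probesets. With array medians subtracted, the median of all probesets moved to 0.42, and the split was 26 lower and 14 higher with a member median of -0.63. Here too the share of all probesets called in that setting is not given. The groups did not overlap for 29 members that were lower (9.07% of all probesets) and 7 that were higher (7.86%).

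**Figure D1:**
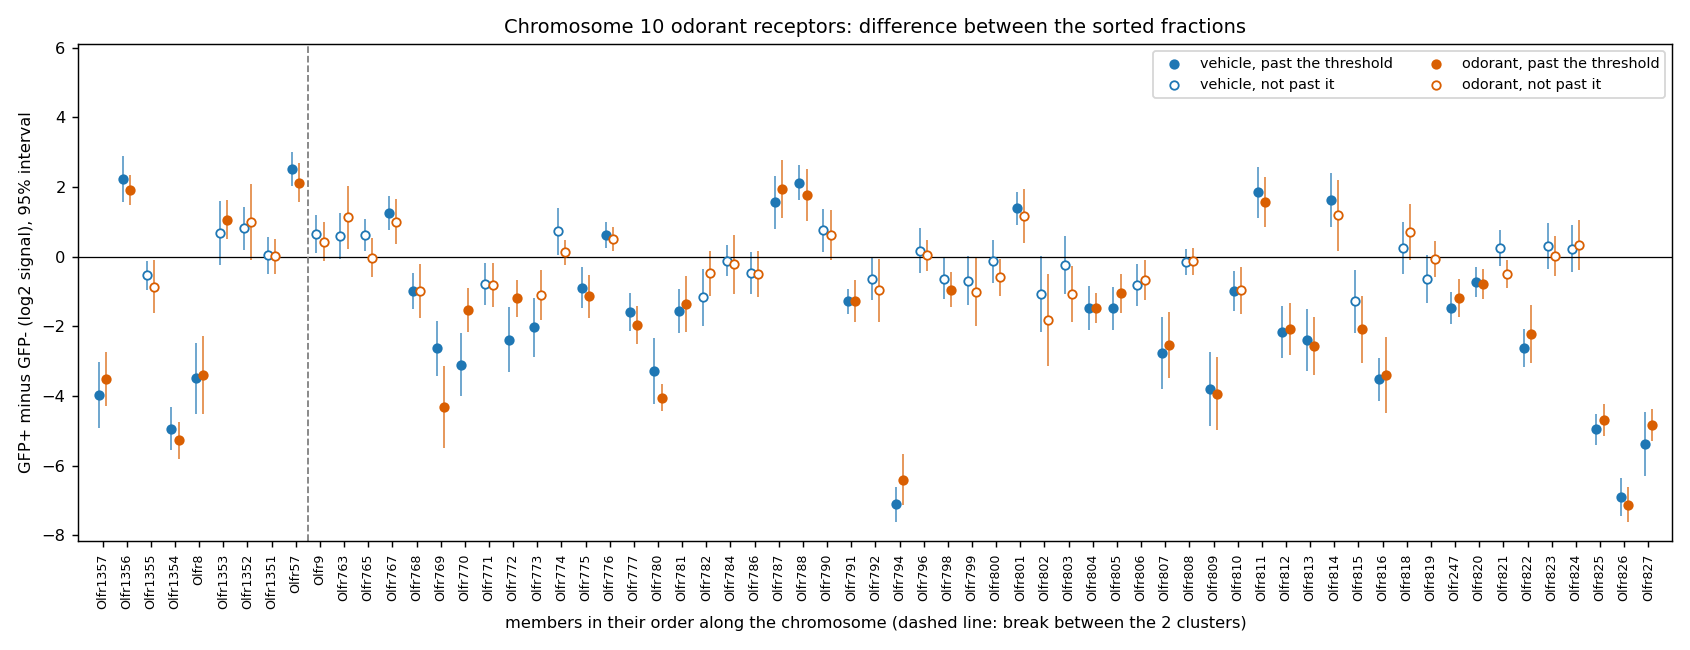
GFP+ minus GFP- difference (log2 signal) of each of the 65 members, in their order along chromosome 10, with vehicle and with odorant. Points are estimates from 4 arrays a group, bars are 95% intervals, filled points passed an adjusted p of 0.05 and the dashed line separates the 2 clusters. More filled points lie below 0 than above it, down to -7.13 for Olfr826, and those above 0 reach 2.52 for Olfr57.

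The direction carried over between the separate sets of mice. Of the 28 members lower with vehicle, 25 were also lower with odorant (89.3%), which is 92.6% of the 27 lower with odorant. The shares were 89.9% and 93.7% among the other odorant receptors and 69.2% and 87.9% among all probesets. Of the 9 higher with vehicle, 5 were also higher with odorant (55.6%), or 83.3% of the 6, against 88.6% and 90.6% of the other receptors and 31.7% and 68.9% of all probesets. No member was called in opposite directions, and 63 of 65 had the same sign. Across the 65 members the differences of both treatments correlated with r = 0.970 and rho = 0.968, a description over genes that share arrays and are not independent. Between the GFP+ and GFP- cells of a pool, the difference was below 0 in all 4 pools for 35 members with vehicle (53.8%) and 36 with odorant (55.4%), and above 0 in all 4 for 12 (18.5%) and 11 (16.9%). Among the other odorant receptors 28.2% and 27.4% were below 0 in all 4 pools and 41.8% and 42.9% above, and among all probesets 16.5% and 13.8% below and 24% and 20.7% above.

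**Figure D2:**
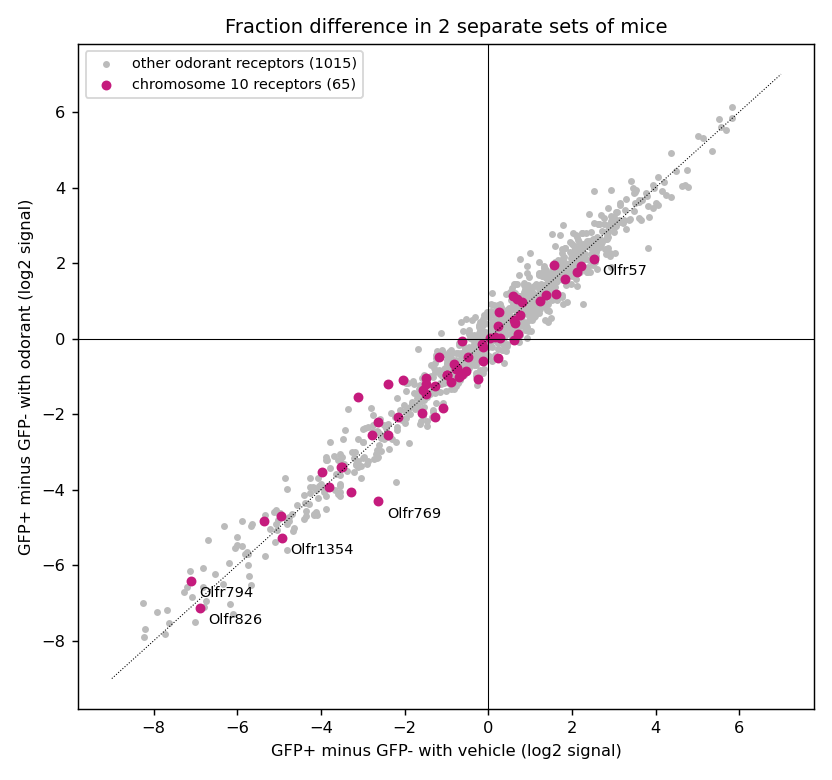
GFP+ minus GFP- difference (log2 signal) with vehicle (horizontal) against that with odorant (vertical), for the 65 members and the 1015 other odorant receptors, with the line of equality dotted. The members lie near that line (r = 0.970), most of them below 0 on both axes.

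The members lower in both were Olfr1357, Olfr1354, Olfr8, Olfr769, Olfr770, Olfr772, Olfr775, Olfr777, Olfr780, Olfr781, Olfr791, Olfr794, Olfr804, Olfr805, Olfr807, Olfr809, Olfr812, Olfr813, Olfr816, Olfr247, Olfr820, Olfr822, Olfr825, Olfr826 and Olfr827. Their differences ran from -7.12 to -0.73 with vehicle and from -7.13 to -0.78 with odorant on the deposited scale. With the background level in place of values under it, 11 of the 25 differed by over 2 log2 units in both. For 24 of them the fractions overlapped in neither treatment, the exception being Olfr775. The 25 were picked for their calls in both treatments, so this is no separate support. When each pool was left out in turn, 19 of the 25 were called every time in both treatments. The other 6 were Olfr775 (lost without vehicle pool 1, 2 or 3 and without odorant pool 1, 2 or 4), Olfr820 (vehicle pool 2, 3 or 4 and odorant pool 1 or 4), Olfr247 (odorant pool 1), Olfr781 (odorant pool 1, 2 or 3), Olfr805 (odorant pool 1, 3 or 4) and Olfr772 (odorant pool 4). Array medians subtracted also ended the calls of Olfr775 with vehicle and of Olfr820 in both.

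Olfr794 showed the largest gap with vehicle. Its GFP+ arrays were at 5.58, 5.23, 5.60 and 6.39, none above background, and its GFP- arrays at 12.78, 12.79, 12.93 and 12.77. With odorant it was at 6.44, 7.41, 5.72 and 5.67 in GFP+ cells and at 12.87, 12.54, 12.80 and 12.65 in GFP- cells. The GFP- arrays of all 8 pools lay in a band above every GFP+ array, and only odorant pool 2 rose above background in GFP+ cells. In GFP+ cells Olfr794 was lower by a factor of at least 71.7 with vehicle (difference -7.12, SE 0.22, limma adjusted p = 5.5e-08) and at least 56.0 with odorant (-6.41, SE 0.33, adjusted p = 3.5e-07).

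At the end of the large cluster, Olfr825, Olfr826 and Olfr827 stand side by side, and each was at background in both GFP+ groups and above it on all 8 GFP- arrays. Olfr826 was at 6.26, 5.82, 5.66 and 5.29 in GFP+ and at 13.23, 12.40, 12.67 and 12.33 in GFP- cells with vehicle. With odorant it was at 5.66, 5.92, 5.06 and 4.94 in GFP+ and at 12.67, 12.69, 12.46 and 12.28 in GFP- cells. No GFP+ array came within 6 log2 units of any GFP- array, and Olfr826 was at least 64.2-fold lower with vehicle (difference -6.90, SE 0.25) and at least 54.1-fold lower with odorant (-7.13, SE 0.23). Olfr825, which differs from it at 1 of the 50 bases shown, was at 5.37, 5.21, 4.75 and 5.38 in GFP+ and 10.57, 9.79, 10.02 and 10.19 in GFP- cells with vehicle. With odorant Olfr825 was at 5.62, 5.56, 4.71 and 5.52 against 10.13, 10.00, 10.12 and 9.96. It was at least 11.2-fold lower with vehicle and at least 9.76-fold lower with odorant, and every GFP- array exceeded every GFP+ array. Olfr827, the last member of the cluster, was at 5.79, 6.13, 4.28 and 5.24 in GFP+ and 11.42, 10.14, 10.18 and 11.18 in GFP- cells with vehicle. With odorant it was at 5.01, 4.75, 5.58 and 5.14 against 10.25, 9.68, 10.20 and 9.69. The fractions were apart by more than the spread of either, and Olfr827 was at least 16.9-fold and 9.11-fold lower (differences -5.37, SE 0.41, and -4.83, SE 0.21). Olfr780, Olfr809 and Olfr812 were likewise at background in both GFP+ groups and above it on all 8 GFP- arrays. These were at least 2.11-fold, 6.12-fold and 2.09-fold lower with vehicle and at least 2.77-fold, 5.25-fold and 1.77-fold lower with odorant. No member showed the reverse pattern. How many of all probesets show either pattern is not given here. Olfr809 was the most variable of these, at 5.88, 6.49, 4.86 and 4.62 in GFP+ and 10.23, 8.73, 9.69 and 8.41 in GFP- cells with vehicle, still with no overlap. Olfr816, also of the large cluster, kept a level above background on 3 of 4 GFP+ arrays of each treatment, at 7.53, 7.32, 6.84 and 6.53 with vehicle and 5.82, 8.49, 8.21 and 7.05 with odorant. Its GFP- arrays were at 10.26, 10.79, 11.15 and 10.10 with vehicle and 10.49, 10.73, 10.60 and 11.36 with odorant. The groups did not overlap, and Olfr816 was at least 11.1-fold lower with vehicle (-3.52, SE 0.28) and at least 8.83-fold lower with odorant (-3.40, SE 0.49).

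**Figure D3:**
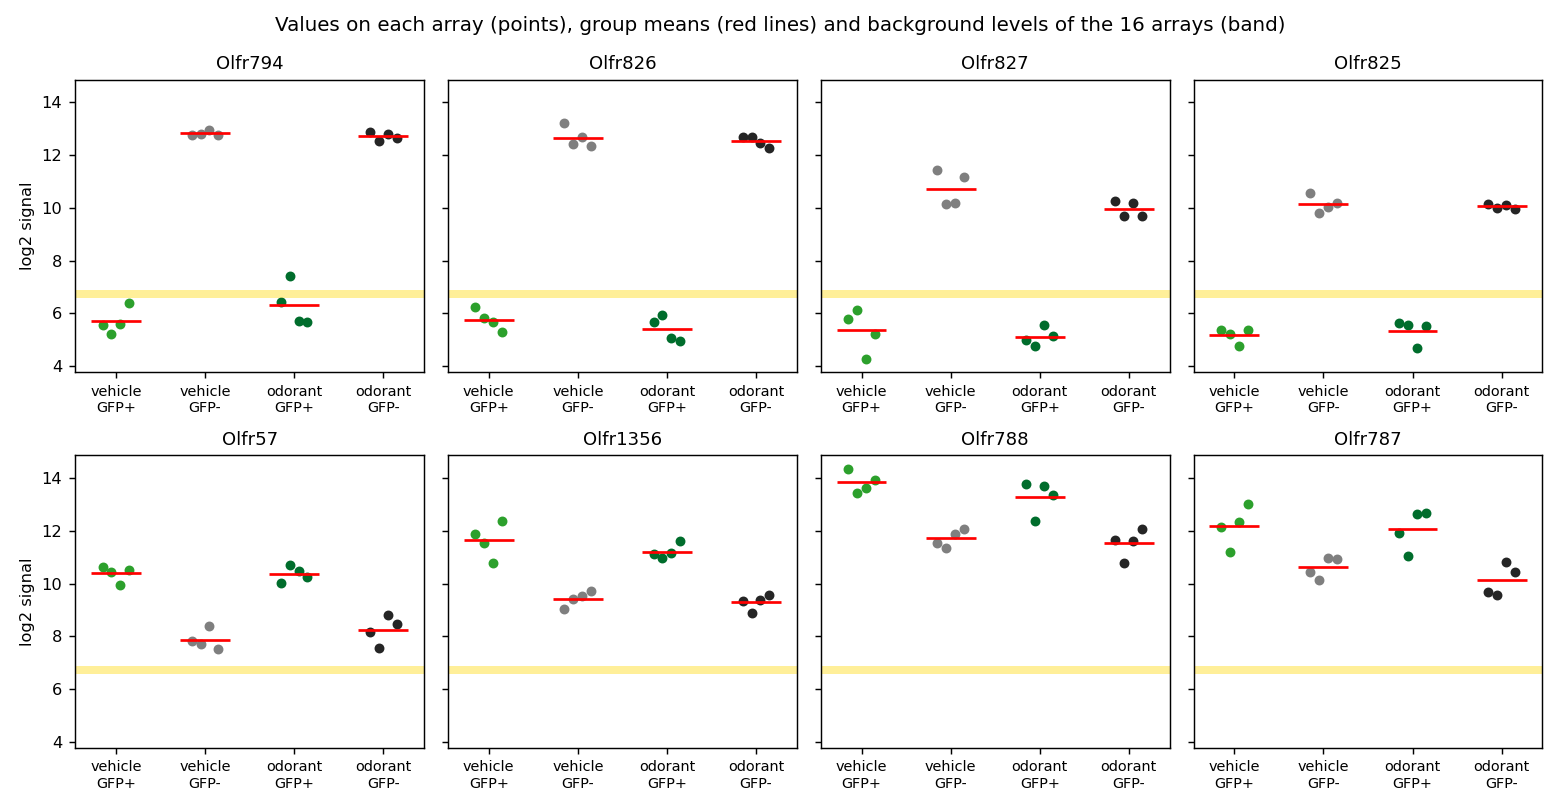
Log2 signal of 8 members in the 4 groups, with 1 point per array, a red line at the group mean and a yellow band over the range of background levels (6.57 to 6.87). GFP+ arrays of Olfr794, Olfr825, Olfr826 and Olfr827 lie at or near the band or below it, far under the GFP- arrays, whereas those of Olfr57, Olfr1356, Olfr787 and Olfr788 lie above the GFP- arrays.

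The small cluster held both directions within 9 genes. Olfr1354 was at 6.76, 6.73, 5.88 and 5.50 in GFP+ and 10.94, 11.14, 11.15 and 11.40 in GFP- cells with vehicle, at least 22.01-fold lower, and at least 18.8-fold lower with odorant. Olfr8, identical to it over the bases shown, was at 6.99, 7.08, 5.56 and 5.18 against 8.77, 10.18, 9.87 and 9.97, at least 7.24-fold lower with vehicle and 5.62-fold with odorant. For both of these neighbours all GFP- arrays exceeded all GFP+ arrays. Olfr1357 was at 7.73, 7.26, 6.22 and 5.58 against 10.46, 11.26, 10.81 and 10.15, or at least 12.1-fold lower with vehicle, and at least 10.98-fold lower with odorant (-3.53, SE 0.35, limma adjusted p = 4.3e-05). Olfr1356 is next to Olfr1357 and went the other way, at 11.87, 11.52, 10.80 and 12.39 in GFP+ and 9.05, 9.40, 9.52 and 9.70 in GFP- cells. It was 4.68-fold higher in GFP+ cells with vehicle and 3.77-fold higher with odorant. Olfr57, at the far end of the small cluster, was at 10.64, 10.43, 9.94 and 10.52 in GFP+ and 7.84, 7.71, 8.39 and 7.52 in GFP- cells with vehicle. With odorant Olfr57 was at 10.03, 10.70, 10.46 and 10.23 against 8.17, 7.55, 8.79 and 8.45. Its fractions did not overlap, and at 5.73-fold (2.52, SE 0.22, adjusted p = 2.1e-05) and 4.34-fold (2.12, SE 0.26, adjusted p = 0.00018) it was the one member more than 2 log2 units higher in GFP+ cells in both treatments.

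Besides Olfr1356 and Olfr57, the members higher in both were Olfr787, Olfr788 and Olfr811 of the large cluster. The fractions of all 5 overlapped in neither treatment, which is no separate support, as they were picked for their calls. Olfr788 was at 14.35, 13.44, 13.63 and 13.90 in GFP+ and 11.54, 11.35, 11.88 and 12.08 in GFP- cells with vehicle, 4.34-fold higher, and was 3.41-fold higher with odorant. Its neighbour Olfr787 was at 12.13, 11.20, 12.34 and 13.02 against 10.43, 10.12, 10.95 and 10.94, 2.95-fold higher, and was 3.85-fold higher with odorant. In both neighbours every GFP+ array exceeded every GFP- array, although the call of Olfr787 with vehicle was lost without vehicle pool 1 (adjusted p = 0.067, limma). Olfr811 was 3.59-fold and 2.97-fold higher, and its call with odorant was lost without odorant pool 4 (adjusted p = 0.079, limma).

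Another 10 members passed in 1 treatment, and limma called none of them different between treatments in the test of the interaction given below. With vehicle alone Olfr767 (2.37-fold), Olfr801 (2.62-fold), Olfr814 (3.07-fold) and Olfr776 (1.54-fold) were higher in GFP+ cells. Their folds with odorant were 2.00, 2.24, 2.27 and 1.41, with limma adjusted p of 0.051, 0.062, 0.15 and 0.072. Once array medians were subtracted, each of them passed with odorant too. Olfr814 was at 9.05, 7.70, 8.89 and 9.75 in GFP+ and 7.28, 7.09, 7.11 and 7.43 in GFP- cells with vehicle, and at 7.45, 7.68, 8.61 and 9.93 against 6.90, 6.95, 7.38 and 7.71 with odorant. Olfr801 was at 11.92, 11.58, 11.79 and 11.16 against 10.33, 10.16, 10.59 and 9.81 with vehicle, and at 11.72, 10.92, 11.86 and 10.78 against 9.60, 9.53, 10.89 and 10.62 with odorant. In both receptors GFP+ exceeded GFP- within every pool, while the groups overlapped with odorant. With the pool as a block, Olfr801 and Olfr814 passed with odorant too (adjusted p = 0.040 and 0.027), and Olfr776 did not pass with vehicle (0.074). Olfr814 was lost without vehicle pool 1 or 3, and Olfr776 without any 1 of the vehicle pools. Olfr773 (at least 3.66-fold) and Olfr810 (1.98-fold) were lower with vehicle, and Olfr768 was called lower while at background on all arrays. Olfr810 was lost without vehicle pool 1, 2 or 3 and with array medians subtracted, and Olfr768 without pool 2. With odorant Olfr773 was at least 1.97-fold lower (adjusted p = 0.057, or 0.0065 with the pool as a block). With odorant alone Olfr815 (at least 2.56-fold) and Olfr798 (1.93-fold) were lower, and both passed with vehicle once the pool was a block (0.0049 and 0.032). Olfr815 was lost without odorant pool 1 and Olfr798 without odorant pool 3 or 4. Olfr1353 was called higher with odorant although no array of either fraction exceeded background there, and was lost without odorant pool 1, 2 or 3. In vehicle, Olfr775 (adjusted p = 0.040, difference -0.89) lay just inside the threshold and Olfr815 (0.053, -1.28) just outside.

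The remaining 25 members passed in neither treatment. Their differences ran from -1.17 to 0.81 with vehicle and from -1.83 to 1.13 with odorant, 14 of them were above background on all 16 arrays, and for 5 the 95% intervals lay within 1 log2 unit of 0 in both treatments. With the pool as a block, Olfr765 (limma adjusted p = 0.049) and Olfr799 (0.025) passed with vehicle and Olfr771 (0.025) and Olfr790 (0.040) with odorant. Once array medians were subtracted, Olfr9, Olfr763 and Olfr790 passed as higher in both treatments. In that setting Olfr1352, Olfr765, Olfr774 and Olfr821 passed as higher with vehicle and Olfr818 with odorant. The widest spread was that of Olfr802, at 11.42, 10.04, 10.15 and 8.43 in GFP+ cells with vehicle and 10.65, 9.48, 8.49 and 7.60 with odorant. Its GFP- arrays were at 11.31, 10.72, 11.12 and 11.22 with vehicle and 9.67, 10.90, 11.57 and 11.40 with odorant. The pool numbered 1 exceeded its GFP- counterpart in both treatments, the other pools lay below theirs, and the groups overlapped (adjusted p = 0.16 and 0.083).

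Adjacent genes shared a direction in some places and opposed each other in others. Of 63 neighbouring pairs of members within a cluster, 12 were both lower with vehicle, 1 both higher, 7 opposite, 31 had 1 member called and 12 none. With odorant the counts were 10, 1, 3, 35 and 14. Of all members 43.1% were lower and 13.8% higher with vehicle, and 41.5% and 9.23% with odorant. Whether neighbours were alike more often than these shares alone would give was not tested. Runs called alike in both treatments were Olfr825, Olfr826 and Olfr827, and Olfr777, Olfr780 and Olfr781, 3 lower genes each. Pairs lower in both were Olfr769 with Olfr770, Olfr804 with Olfr805, Olfr812 with Olfr813, Olfr247 with Olfr820 and Olfr1354 with Olfr8, and Olfr787 with Olfr788 was higher. In the large cluster 25 of 56 members were lower (44.6%) and 7 higher (12.5%) with vehicle, with a median of -0.80, and 24 and 3 with odorant, with a median of -0.97. In the small cluster 3 of 9 were lower and 2 higher with vehicle, and 3 and 3 with odorant, with medians of 0.034 and 0.0071.

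Whether close similarity at the start of the gene goes with a shared direction was not tested. Of the 11 pairs with at least 45 identical bases of 50, 1 was called in opposite directions with vehicle, Olfr775 with Olfr776. Olfr775 was at 8.82, 9.10, 9.34 and 8.36 in GFP+ and 9.94, 9.91, 10.21 and 9.14 in GFP- cells, below its GFP- value in every pool although the groups overlapped. Olfr776 was at 13.23, 12.74, 12.93 and 12.85 against 11.95, 12.51, 12.36 and 12.47, above its GFP- value in every pool with no overlap. Both calls depended on single pools, as given above. Olfr9 and Olfr763, identical over these bases, had differences of 0.65 and 0.58 with vehicle and 0.42 and 1.13 with odorant, and neither passed. With array medians subtracted both passed in both treatments. Olfr816 and Olfr822, which are not neighbours and differ at 4 bases, were both lower, by 3.52 and 2.64 with vehicle and by 3.40 and 2.21 with odorant (log2).

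Odorant was then compared with vehicle within GFP+ cells, which asks which receptors the exposure changed among neurons with the reporter. Limma called 0 of 65 members and 0 of 22206 probesets (0% in either direction). At an unadjusted p under 0.05 there were 3 members (4.62%), all lower. Among the other odorant receptors 4.73% were lower and 1.77% higher, so the share of lower members was near theirs. Of all probesets 848 (3.82%) had such a p, 1.46% lower and 2.36% higher. Limma with a trended and robust prior also called 0. The median difference was -0.22 for members, -0.071 for other receptors and 0.0054 for all probesets, and 49 of 65 members lay below 0. Without vehicle pool 1 the median of the members was -0.15. The half-width of the 95% interval had a median of 0.65 log2 units, and for 57 members its upper bound lay below 1, so a rise to above 2-fold was outside the interval for those. For 32 the whole interval lay within 1 log2 unit of 0, and both counts include members at background, whose intervals say little about their RNA.

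Olfr821 had the smallest unadjusted p among members in GFP+ cells and was the one whose groups did not overlap in this comparison (0.919% of all probesets were lower without overlap and 1.38% higher). It was at 10.52, 10.32, 10.71 and 10.50 with odorant and 11.81, 11.003, 10.78 and 11.48 with vehicle. All odorant arrays lay below all vehicle arrays, by a small margin for odorant pool 3 against vehicle pool 3. The difference was -0.75 (SE 0.22, unadjusted p = 0.0056, limma adjusted p = 0.999). In GFP- cells Olfr821 was at 11.02 ± 0.33 with odorant and 11.03 ± 0.23 with vehicle (SD, n = 4). Olfr803 was at 9.09, 8.50, 8.69 and 8.63 with odorant and 10.54, 9.46, 8.996 and 9.54 with vehicle, where only odorant pool 1 exceeded the lowest vehicle array (-0.91, SE 0.29, limma adjusted p = 0.999). Olfr774, the remaining member of the 3, was at background on all 4 odorant arrays and above it on 2 of 4 vehicle arrays. Olfr799 was next, with a difference of -0.69 (unadjusted p = 0.067, limma adjusted p = 0.999).

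In GFP- cells odorant against vehicle also gave 0 calls among members and among all probesets (0%) with limma, with or without the trended and robust prior. Unadjusted, 8 members (12.3%) had a p under 0.05, 6 lower (9.23%) and 2 higher (3.08%). Among the other receptors 7.09% were lower and 2.76% higher. Of all probesets 6.84% had such a p, 3.44% lower and 3.41% higher. The median difference was -0.13 (other receptors -0.088, all probesets -0.0070), and without odorant pool 2 it was -0.0047. For 44 members the 95% interval lay within 1 log2 unit of 0. The one member without overlap was Olfr792 (2.24% of all probesets were higher without overlap and 1.92% lower), and it was at background on all arrays of both groups.

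Among the 6 lower members, 3 lie within 4 consecutive genes of the large cluster, Olfr770, Olfr772 and Olfr773, with Olfr771 between them. The 6 were picked by unadjusted p, and whether they lie closer together than other members was not tested. Olfr772 was at 8.48, 8.34, 7.59 and 8.65 in GFP- cells with odorant and 9.44, 9.23, 8.56 and 10.11 with vehicle. Olfr773 was at 8.39, 7.95, 7.18 and 8.52 against 9.11, 8.94, 8.46 and 9.60, and Olfr770 at 7.81, 9.27, 8.61 and 9.17 against 10.53, 10.29, 9.45 and 8.77. In each of the 3 the groups overlapped, with vehicle pool 3 low for Olfr772 and Olfr773 and vehicle pool 4 low for Olfr770. The differences were -1.07 (SE 0.32), -1.02 (SE 0.31) and -1.05 (SE 0.41), each with a limma adjusted p of 0.71. Olfr807 had the smallest unadjusted p, at 8.01, 8.74, 8.14 and 8.31 with odorant and 9.45, 8.72, 9.26 and 8.97 with vehicle (-0.80, SE 0.21, limma adjusted p = 0.71). Only odorant pool 2 and vehicle pool 2 crossed. Olfr804 differed by -0.53 (SE 0.20) and Olfr827 by -0.78 (SE 0.30), at the same adjusted p of 0.71 by limma.

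**Figure D4:**
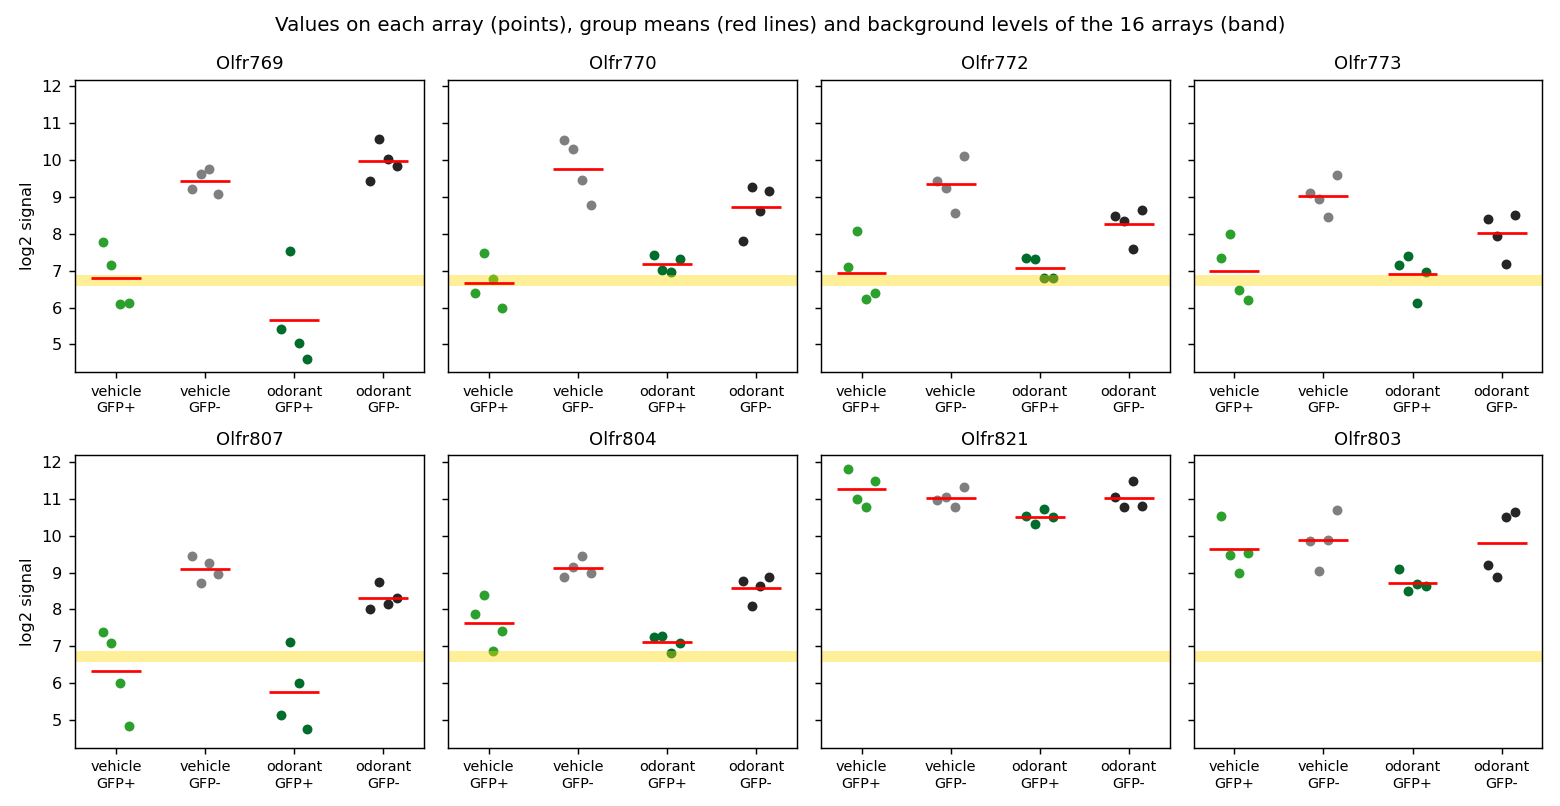
Log2 signal of 8 members in the 4 groups, with 1 point per array, a red line at the group mean and a yellow band over the range of background levels. In GFP- cells Olfr770, Olfr772 and Olfr773 were about 1 log2 unit lower with odorant than with vehicle, with overlapping arrays, and in GFP+ cells Olfr821 was lower with odorant without overlap. None passed an adjusted p of 0.05.

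The interaction subtracts the odorant effect of GFP- cells from that of GFP+ cells, and it gave 0 calls among members and all probesets (0%) with limma, by either prior. Unadjusted, 4 members had a p under 0.05 (6.15%, against 4.92% of all probesets), 2 above 0 (2.95% of all probesets) and 2 below (1.98%). They were Olfr770 (1.57, SE 0.54), Olfr772 (1.19, SE 0.52), Olfr769 (-1.68, SE 0.71) and Olfr821 (-0.75, SE 0.30), each with a limma adjusted p of 0.96. In GFP+ cells Olfr769 was at 5.43, 7.54, 5.05 and 4.61 with odorant and 7.78, 7.15, 6.09 and 6.13 with vehicle, where odorant pool 2 was high and the other 3 odorant arrays were at background. In GFP- cells it was at 9.42, 10.58, 10.03 and 9.85 against 9.22, 9.61, 9.76 and 9.08, so its GFP+ cells were at least 8.16-fold below GFP- cells with odorant and at least 5.13-fold below with vehicle. In its neighbour Olfr770 GFP+ cells were at least 7.25-fold below with vehicle and 2.90-fold below with odorant, and in Olfr772 at least 4.64-fold and 2.29-fold. For all 3 of these genes 2 of the 4 GFP+ arrays with vehicle were not above background. The half-width of the 95% interval of the interaction had a median of 0.94 log2 units over members, and for 14 members the interval lay within 1 of 0.

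**Figure D5:**
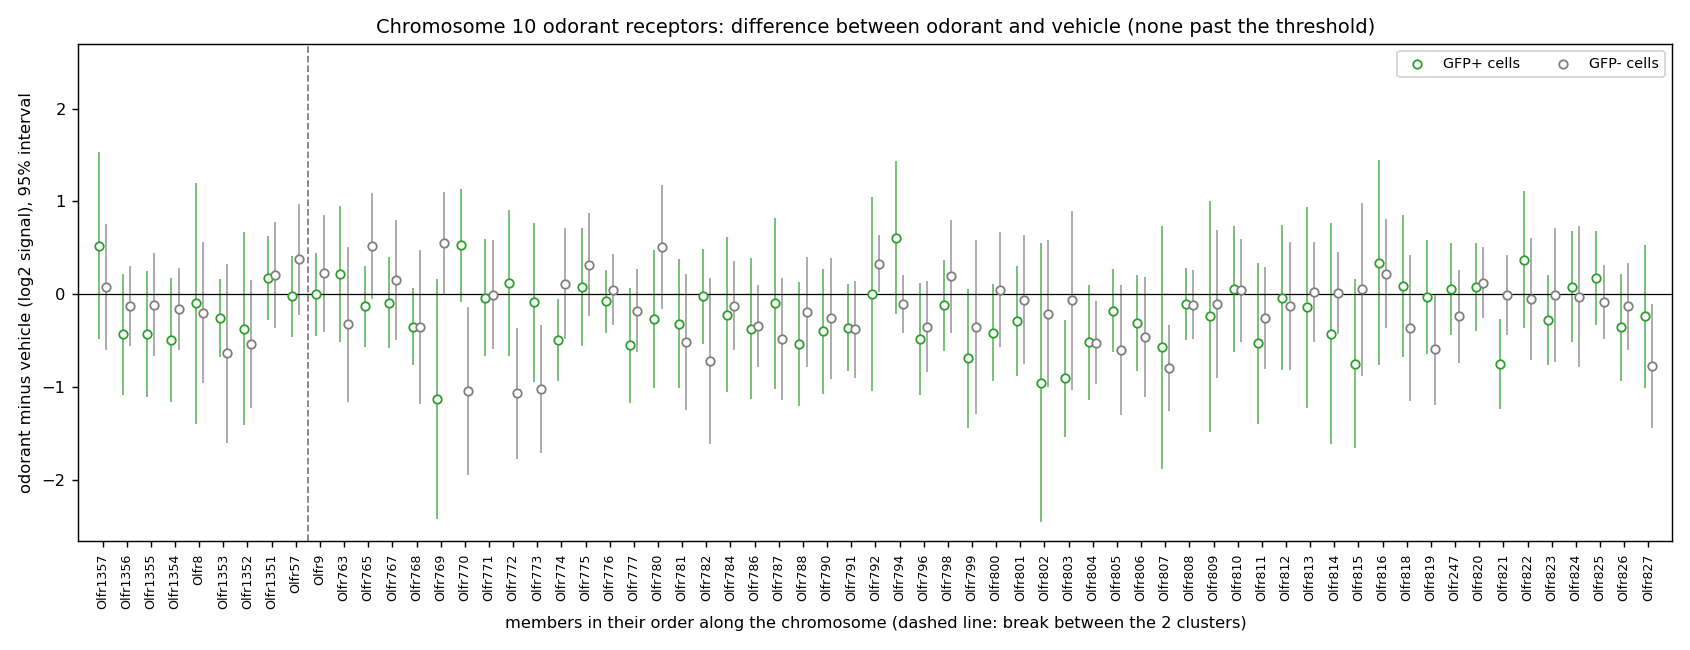
Odorant minus vehicle difference (log2 signal) of each of the 65 members, in their order along chromosome 10, in GFP+ and in GFP- cells. Points are estimates from 4 arrays a group, bars are 95% intervals and the dashed line separates the 2 clusters. Estimates lie between -1.13 and 0.61 in GFP+ and between -1.07 and 0.55 in GFP- cells, and none passed an adjusted p of 0.05.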

How the data were processed

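RNA of FACS-sorted cells (50 to 100 ng) was hybridised to 16 Clariom S arrays, 4 per group. Per the submitters' processing notes, the deposited log2 probeset signals were made by the authors with Affymetrix Expression Console. The sources used here do not give its version, background correction or normalization, and the values were used as deposited. Of 28846 probesets, 6640 controls were left out. Of the 22206 gene probesets, 19572 carried 1 symbol, 0 several and 2634 none. The background level of an array was the 95th percentile of its 23 antigenomic controls. A group was at background when no array exceeded it. Where any array of the lower group did not exceed it, folds are lower bounds with the level in place of values under it. Nothing says that the pools were processed independently after sorting, so p-values measure the spread between these arrays.

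Comparisons of 2 groups were fitted on their own 8 arrays and the interaction on all 16, with limma 3.58.1 (lmFit and eBayes, two-sided, R 4.3.3) and Benjamini-Hochberg adjustment over all 22206 probesets at 0.05. Analyses were also run with array medians subtracted, quantile normalization, probesets above background on at least 4 arrays, the pool number as a block, a trended robust prior, all 16 arrays in 1 fit, and each replicate left out. Background was also set at the highest antigenomic control. Fits were tested on simulated data. The GFP+ and GFP- arrays of a number are paired because 24 mice in pools of 3 give 8 pools. Deviations of such arrays from their group means correlated with r of 0.11 to 0.16 with vehicle and 0.014 to 0.36 with odorant. With vehicle 8 of 8 arrays correlated best with their own number, and with odorant 5 of 8.

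RefSeq windows were available for 52 of the 65 members, and 48 of those models open with ATG. Protein sequences were not used here, so similarity was taken from the first 50 coding bases, a choice made after seeing the data. Values by array were planned for up to 8 members with the highest and 8 with the lowest (most negative) fraction difference past the threshold. They were also planned for the 4 with the smallest p in each other comparison, the most similar pairs and members nearest the threshold. Some of these, such as Olfr811, Olfr767 and Olfr815, have only summary values here. Olfr8, Olfr770 and Olfr802 were added after their values were seen. The members, lists and tests were chosen with earlier results of these data known. Figures were made in Python 3.11.15 with matplotlib 3.10.9.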

Additional observations from a re-analysis of the deposited data

Results flagged for a closer look

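In 8 of 260 combinations of a member and a group, 1 array stood apart from the other 3 by Dixon's criterion, which chance alone passes in about 1 in 20 groups. In GFP- cells with vehicle, Olfr780 was at 6.67 in pool 4 against 7.9997 to 8.16 in the others, and Olfr794 at 12.93 in pool 3 against 12.77 to 12.79. Olfr782 was at 4.06 in pool 2 of that group against 5.49 to 5.76, all at background. In GFP+ cells with odorant, Olfr776 was at 12.62 in pool 1 against 12.93 to 12.97, Olfr768 at 2.63 in pool 4 against 2.97 to 3.03 and Olfr825 at 4.71 in pool 3 against 5.52 to 5.62, the last 2 at background. In GFP- cells with odorant, Olfr1355 was at 7.09 in pool 3 against 6.15 to 6.29, and Olfr790 at 7.66 in pool 2 against 8.59 to 8.77.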

How the results depend on the processing

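Counts of members called, and of members at background, kept within 1.5 times their value under every setting run, with 2 exceptions. With array medians subtracted, 16 members in place of 9 were higher in GFP+ cells with vehicle, and 14 in place of 6 with odorant. That setting raised the differences of all probesets, and the share of them called in it is not given here. Without each replicate in turn, 6 to 9 were higher and 25 to 28 lower with vehicle, and 5 to 6 higher and 22 to 28 lower with odorant. No named member turned its direction. With the pool as a block (replicate block), 40 members were called with vehicle in place of 37 and 38 with odorant in place of 33. Between odorant and vehicle, nothing in the labels pairs the numbers, although the pools numbered 4 of both treatments shared a low Eif2s3y and had the highest correlation in each fraction (0.25 in GFP+ and 0.305 in GFP- cells). The correlation of deviations was -0.034 to 0.25 in GFP+ and -0.10 to 0.305 in GFP- cells, where 4 of 8 and 5 of 8 arrays correlated best with their own number. The block gave 0 calls there and in the interaction, as did every other setting. Of the calls named in the report, the fit on all 16 arrays ended that of Olfr1353 with odorant (adjusted p = 0.076, limma). The quantile normalization ended those of Olfr781 and Olfr798 with odorant. The filter on dim probesets called Olfr815 with vehicle (0.049). Leaving out vehicle pool 4 added calls of Olfr1353 and Olfr806 with vehicle. Leaving out odorant pool 4 added that of Olfr767 with odorant. Precision is limited by the number of arrays, and members at background have bounds only.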

Other observations

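The GFP+ values of the 25 members lower in both treatments differed between pools, a pattern noticed after the values were seen. With vehicle their median in GFP+ cells was 7.09, 7.15, 6.09 and 6.13 in pools 1 to 4, and with odorant 6.44, 7.33, 6.56 and 6.81. Many of these values lie at background: 51 of 100 with vehicle and 52 of 100 with odorant exceeded it, so a ranking of pools is given only where the highest value did, which held for 18 of the 25 in each treatment. Of these 18, odorant pool 2 held the highest GFP+ value for 10, and vehicle pools 1 and 2 for 9 and 6. Of the 222 other odorant receptors lower in both treatments, 115 had a highest value above background in each treatment, in odorant pool 2 in 54 cases and in vehicle pools 1 and 2 in 41 and 47, with medians over all 222 of 6.24, 6.31, 5.90 and 5.96 with vehicle and 6.51, 6.73, 5.88 and 5.93 with odorant. The summed immune markers (log2) in the same GFP+ arrays were 10.29, 11.30, 10.14 and 10.68 with vehicle and 10.04, 9.67, 9.56 and 10.93 with odorant. The summed sustentacular markers were 14.81, 14.93, 14.63 and 14.76 with vehicle and 15.52, 15.65, 13.41 and 14.79 with odorant. The part of these cells in the pattern was not tested, nor was any other cause.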
